A study of Mus musculus with 6 samples.

Results

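The miR-322 cluster is a group of miRNAs made from neighbouring hairpins on the mouse X chromosome, and its members were followed here in vitrified and fresh mouse blastocysts. The members were all miRNA assays on the cards numbered miR-322, miR-503, miR-351, miR-450 or miR-542, apart from those marked # for the opposite arm, which gave 12 of the 750 miRNA assays, of which card A held 9 and card B held 3. The cluster was chosen by the low level of rno-miR-351 in the vitrified pools, so the differences between vitrified and fresh pools are given as a description, and no p-value for them is used as support. Both groups were blastocysts of the Kunming mouse of China, from superovulated females 5 weeks old mated with fertile males, and CZB medium was used for both. There were 3 vitrified pools (V1, V2 and V3) and 3 fresh pools (F1, F2 and F3) of 300 blastocysts each. The vitrified embryos had passed through 10% EG with 10% DMSO for 30 seconds, then EDFS30 for 25 seconds in an open-pulled straw, and liquid nitrogen, and were warmed in 0.5 M sucrose for 5 minutes. The fresh embryos were not vitrified. According to the authors, survival of vitrified blastocysts was judged by their form some hours after warming, and not all survived. Their paper does not state when RNA was taken. A pool mixes whole embryos, so that inner cell mass and trophectoderm were not separated.

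MiRNAs lower the output of mRNAs that pair with their seed, the bases near the 5′ end of the mature strand, and miRNAs with the same seed share many targets. The mouse cluster is transcribed from one strand as a common precursor. MiR-322 (the counterpart of human miR-424) and miR-503 are known for slowing the cell cycle through targets such as Cdc25a and the cyclins, and for their rise in differentiating muscle. In early mouse embryos and embryonic stem cells the best known miRNAs are instead those of the miR-290 to miR-295 cluster.

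RefSeq (GRCm38.p6) places the 7 hairpins on the minus strand of chromosome X within 6353 bases, in the order Mir322, Mir503, Mir351, Mir542, Mir450-2, Mir450-1 and Mir450b. Mir322 and Mir503 are 200 bases apart, and the longest gap, 3767 bases, separates Mir351 from Mir542. The mature sequences of the cluster that bear on the assays with a signal, with a seed relative of miR-322 and one of miR-351, are printed 5′ to 3′ with the seed (bases 2 to 8) in capitals, to show which members share a seed with each other or with miRNAs elsewhere in the genome.
mmu-miR-322-5p: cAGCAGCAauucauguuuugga
mmu-miR-322-3p: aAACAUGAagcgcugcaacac
mmu-miR-503-5p: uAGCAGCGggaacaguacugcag
mmu-miR-503-3p: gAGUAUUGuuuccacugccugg
mmu-miR-351-5p: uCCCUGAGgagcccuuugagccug
mmu-miR-542-3p: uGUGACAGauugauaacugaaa
mmu-miR-542-5p: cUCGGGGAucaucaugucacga
mmu-miR-450a-5p: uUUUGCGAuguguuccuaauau
mmu-miR-450b-3p: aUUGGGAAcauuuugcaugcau
mmu-miR-16-5p: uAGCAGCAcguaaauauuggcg
mmu-miR-125a-5p: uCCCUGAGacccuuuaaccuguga

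The sequence of mmu-miR-322-5p lies at chrX:53054306-53054327, that of mmu-miR-503-5p at chrX:53054027-53054049 and that of mmu-miR-351-5p at chrX:53053315-53053338, all on the minus strand. The seed of mmu-miR-322-5p, AGCAGCA, is also that of mmu-miR-16-5p and is found in 10 of the 1679 mature mouse sequences. That of mmu-miR-503-5p, AGCAGCG, is found in 1. The seed of mmu-miR-351-5p, CCCUGAG, is shared with mmu-miR-125a-5p and found in 5. The 9 cluster sequences printed have 9 different seeds. The seed of mmu-miR-450b-3p, UUGGGAA, is however shared with mmu-miR-450a-1-3p, a sequence of the cluster that is not printed. The deposited names of the wells for miR-322, miR-351 and miR-503 state no arm, and the target sequences of the assays are not given in the sources used here.

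Each well gave a threshold cycle (Ct), the point in the PCR where its signal rises over a fixed line, so that a higher Ct means less template. Of the 750 miRNA assays, between 382 and 409 had a Ct in V2, V3, F2 and F3, but 218 had one in V1 and 140 in F1, so values are given below with and without these pools. Of 21 assays for the early embryo miRNAs miR-290 to miR-295, miR-302 and miR-367, 8 to 12 were determined in the pools numbered 2 and 3, 0 in V1 and 1 in F1. The earliest was mmu-miR-292-3p on card A, at a mean Ct of 24.12 over V2, V3, F2 and F3, whereas mmu-miR-302a, mmu-miR-302c and mmu-miR-302d were undetermined in every pool. Assays for miRNAs of muscle, brain, liver, blood and ciliated epithelium were determined in 17 to 20 of 23 cases in these 4 pools, in 12 in V1 and in 11 in F1. The blood miRNA mmu-miR-451 had a mean Ct of 22.74 in V2, V3, F2 and F3. Fewer cells with a miRNA and less of it per cell cannot be told apart in such pools.

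Of the 72 wells of the cluster, 36 had a Ct, 17 in vitrified and 19 in fresh pools. V1 and V2 had 5 members determined each and V3 had 7, whereas F1 had 1 and F2 and F3 had 9 each. The same 9 members were determined in F2 and F3. Of the 370 miRNA assays determined in both F2 and F3, 92.4% had a Ct in V2 and the same share in V3, against 5 and 7 of these 9 members. In V1 the share was 56.2% against 5 of 9 members, and in F1 it was 35.9% against 1 of 9. These assays were picked by fresh pools, and the cluster by a low level in vitrified pools. A lower share of members in vitrified pools is thus partly built in, and nothing is read from it. The assays of mmu-miR-450b-5p, rno-miR-450a and mmu-miR-450a-3p were undetermined in all 6 pools.

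**Figure D1:**
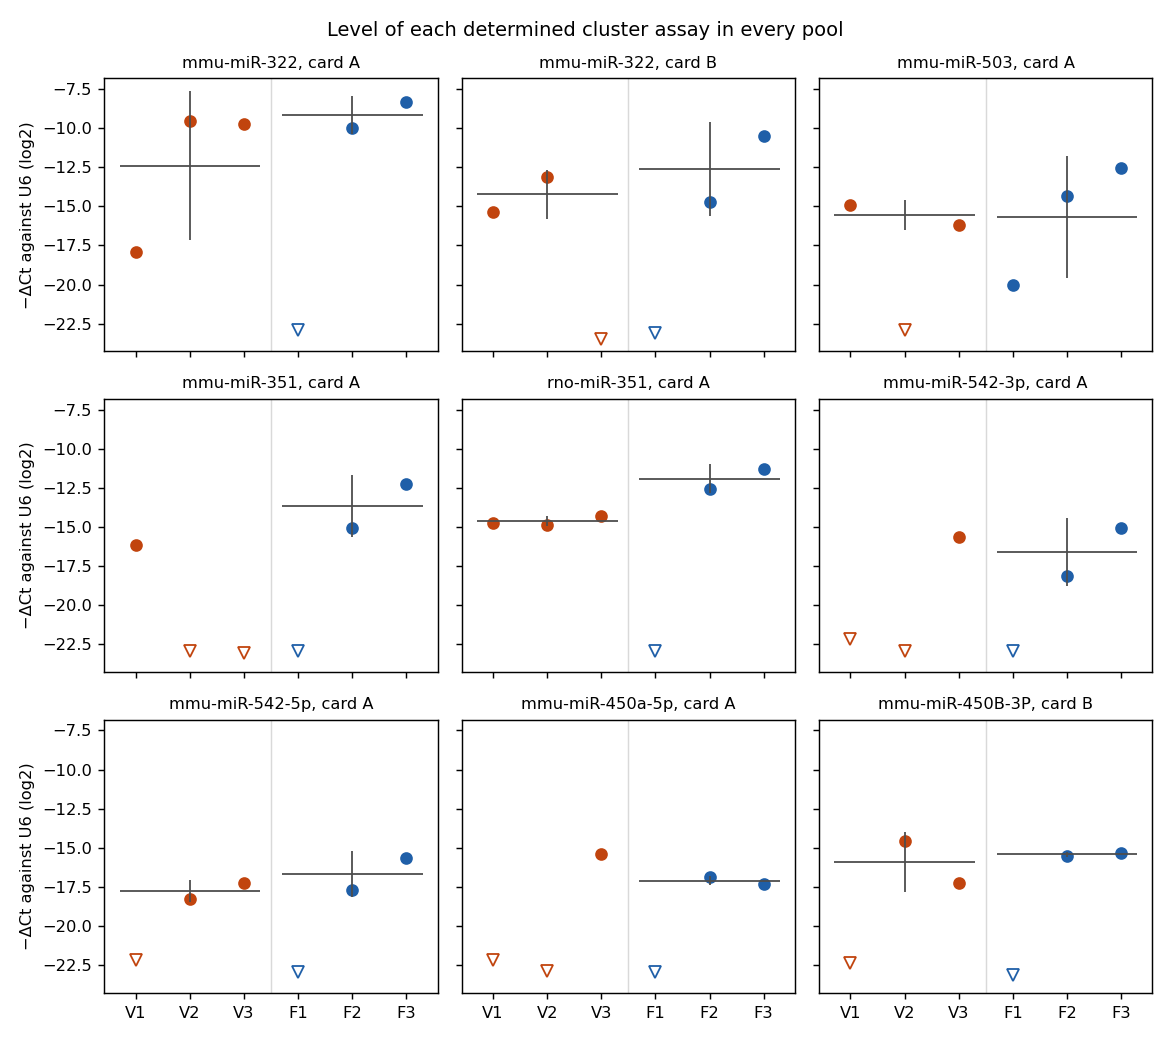
Level of the 9 cluster assays with a Ct in at least 1 pool. The vertical axis is −ΔCt against the U6 wells of the same card (log2), filled points are determined wells of vitrified (V, orange) and fresh (F, blue) pools, open triangles are undetermined wells drawn at the level of 40 cycles, and lines show group means ± SD of determined wells where a group has 2 or more. The 3 vitrified values of rno-miR-351 lie between −14.86 and −14.28, below F2 at −12.56 and F3 at −11.26.

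The assay of mmu-miR-322 on card A was the earliest of the cluster. Its raw Ct was 26.63 in V2, 26.71 in V3, 26.60 in F2 and 25.27 in F3, and it was 35.73 in V1 and undetermined in F1. Apart from V1 and F1, all pools therefore lay between 25.27 and 26.71, with V2 and F2 nearly equal. To set it beside other assays, ΔCt was obtained by subtracting the mean U6 Ct of that card and pool, and −ΔCt was used as the level on the log2 scale. The level of mmu-miR-322 on card A was above that of 54.7% of the determined card A assays in V2, 61.1% in V3, 60.3% in F2 and 67.2% in F3, but of only 9.29% in V1. The ΔCt of the vitrified pools was 12.39 ± 4.78 (SD, n = 3) and that of the fresh pools 9.16 ± 1.20 (SD, n = 2), which is a log2 difference of −3.23 (standard error 2.87), with the groups overlapping. Without V1 the log2 difference was −0.47, so the larger value rests on that pool.

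A different assay on card B also carries the name mmu-miR-322. It had a raw Ct of 32.99 in V1, 30.85 in V2, 31.68 in F2 and 27.66 in F3, and it was undetermined in V3 and F1. The earliest of these wells was F3, and the groups overlapped. Its log2 difference between vitrified and fresh pools was −1.61 (standard error 1.97, n = 2 and 2). It was −0.51 between V2 and the mean of F2 and F3. Over all determined pools it was −0.04 relative to the mean of U6 and the other control wells determined in all pools. Within a pool, the level of the card A assay minus that of the card B assay was −2.58 in V1, 3.61 in V2, 4.73 in F2 and 2.19 in F3. The mean difference of 1.99 ± 3.21 (SD, n = 4) on the log2 scale was smaller than its SD (2-sided exact sign-flip permutation test, p = 0.375, adjusted p = 0.375 over 2 such tests, where 4 pools allow 0.125 at the smallest). V1 was the pool in which the order of these assays turned. Every pool gave a Ct for the opposite-arm well mmu-miR-322# on card B, at Ct values of 30.03, 29.43 and 29.20 in V1, V2 and V3 and 33.29, 28.55 and 25.65 in F1, F2 and F3. The level of the card B mmu-miR-322 well was below it in each of the 4 pools that had both, by a mean of −2.38 ± 0.80 (SD, n = 4).

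MiR-503 is encoded next to miR-322, and its assay mmu-miR-503 on card A was the only member determined in F1. Its raw Ct was 32.70 in V1 and 33.18 in V3, with V2 undetermined. The fresh pools gave 37.12 (F1), 30.95 (F2) and 29.53 (F3). The 2 vitrified values lay between those of F1 and F2. The ΔCt of the vitrified pools was 15.55 ± 0.94 (SD, n = 2) and that of the fresh pools 15.66 ± 3.90 (SD, n = 3), which is a log2 difference of 0.11 (standard error 2.40). Without F1 the log2 difference was −2.08, and between V3 and the mean of F2 and F3 it was −2.74. Every pool also gave a Ct for the opposite-arm well mmu-miR-503# on card B, at Ct values between 28.41 and 32.63. The level of mmu-miR-503 minus that of this well was below 0 in each of the 5 pools that had both, from −5.83 in F1 to −0.95 in F2.

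MiR-351 is a rodent member of the cluster with the seed of miR-125, and card A holds an assay named for rat and one named for mouse. The rat-named rno-miR-351 had a raw Ct of 32.53, 31.96 and 31.25 in the vitrified pools V1, V2 and V3. The fresh pools F2 and F3 gave 29.14 and 28.21, and F1 was undetermined. Every vitrified value was later than both determined fresh values. The ΔCt of the vitrified pools was 14.62 ± 0.30 (SD, n = 3) and that of the fresh pools 11.91 ± 0.92 (SD, n = 2), which is a log2 difference of −2.71 (standard error 1.002). This is the measurement for which the cluster was chosen. In the pools numbered 2 and 3 alone the log2 difference was −2.66. With V1, V2, V3 or F1 left out in turn it lay between −2.88 and −2.59. F1 gave no Ct for this assay, so leaving it out did not change the value. Neither F2 nor F3 could be left out, as the fit needed 2 determined wells in each group. The undetermined F1 well and the reference moved it further. The log2 difference was −1.59 relative to the mean of U6 and the other control wells determined in all pools. It was −1.29 relative to the mean of the miRNA assays determined in all pools. With undetermined wells and those after 35 cycles set to 35 it was −0.71. With undetermined wells set to 40 it was 0.96, in the other direction.

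The mouse-named mmu-miR-351 was determined in 3 pools, at 33.94 in V1, 31.65 in F2 and 29.20 in F3. It was undetermined in V2 and V3, where the rat-named assay gave a Ct, and in F1, so it did not enter the fit. The single vitrified well was later than both fresh wells. Its level minus that of rno-miR-351 was −1.41 in V1, −2.50 in F2 and −0.98 in F3, a mean of −1.63 ± 0.78 (SD, n = 3) on the log2 scale. The mouse-named assay was the lower in 3 of 3 pools (2-sided exact sign-flip permutation test, p = 0.25, the smallest that 3 pools allow, adjusted p = 0.375 over 2 such tests).

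MiR-542 has an assay for each arm, both on card A. The assay of mmu-miR-542-5p had a raw Ct of 35.35 and 34.22 in the vitrified pools V2 and V3 and of 34.31 and 32.60 in the fresh pools F2 and F3, and V1 and F1 were undetermined. The groups overlapped by the values of V3 and F2, and the log2 difference was −1.07 (standard error 1.36, n = 2 and 2). For mmu-miR-542-3p, known for silencing the survivin gene Birc5, the raw Ct was 32.63 in V3, 34.69 in F2 and 32.00 in F3, with the other pools undetermined. The level of the 3p arm minus that of the 5p arm was 1.59 in V3, −0.39 in F2 and 0.60 in F3, so neither arm was the higher in all 3 pools.

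Of the 5 miR-450 assays, 3 were undetermined in every pool. The assay of mmu-miR-450a-5p had a raw Ct of 32.39 in V3, 33.47 in F2 and 34.27 in F3 and was undetermined in V1, V2 and F1. It was the only member whose single vitrified well was earlier than every fresh well. On card B, mmu-miR-450B-3P had a raw Ct of 32.28 in V2, 33.77 in V3, 32.47 in F2 and 32.46 in F3, and V1 and F1 were undetermined. The fresh values lay between the vitrified ones, and the log2 difference was −0.49 (standard error 1.45, n = 2 and 2).

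Of the 12 members, 6 had at least 2 determined wells in each group and entered the linear model of limma with the other miRNA assays, 335 in all. In that fit 0 of the 335 assays (0%) passed the threshold of 0.05 after Benjamini-Hochberg adjustment, so none of the 6 members did, and 1 assay (0.299%) had an unadjusted p-value under 0.05. As the cluster was chosen for this one, rno-miR-351, nothing is read from its p-value. The mean level was lower in vitrified blastocysts for 5 of the 6 members, against 51.9% of all tested assays. All 5 were undetermined in F1, so their fresh means leave out the pool with the fewest determined assays. The remaining member, mmu-miR-503, was the only one with a Ct in F1. The values of the groups did not overlap, with the vitrified pools lower, for 1 of the 6, rno-miR-351, against 5.07% of all tested assays. The median log2 difference was −1.34 over the 6 members and −0.05 over all 335 assays. In the pools numbered 2 and 3 it was −0.78 over the 4 members that could be fitted and −0.02 over 326 assays. With undetermined wells set to 40 the median was −0.27 over the 12 members and 0.42 over 750 assays. These shares come from the contrast from which the cluster was chosen and are given as a description.

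**Figure D2:**
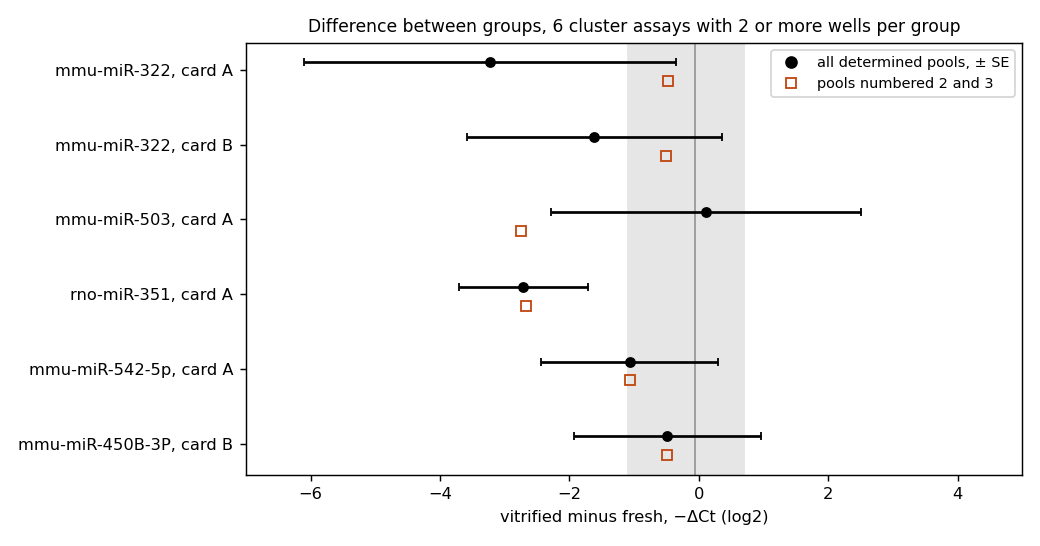
Difference in −ΔCt between vitrified and fresh pools (horizontal axis, log2) for the 6 cluster assays with at least 2 determined wells per group. Black points with bars are fitted differences ± standard error, open squares are differences over the pools numbered 2 and 3, the grey band is the interquartile range of all 335 tested assays and the grey line their median of −0.05. The points of mmu-miR-322 on card A (−3.23 and −0.47) and mmu-miR-503 (0.11 and −2.74) lie far apart, whereas those of rno-miR-351 (−2.71 and −2.66) nearly coincide. For rno-miR-351 both points use V2, V3, F2 and F3 and differ only by V1, since F1 was undetermined.

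The delay of V1 behind V2 and V3 differed between members. For card A, V1 lagged behind the average Ct of V2 and V3 by a median of 5.64 cycles (quartiles 3.09 and 7.17) over the assays compared. The delay was 9.06 cycles for mmu-miR-322, larger than that of 92.5% of these assays. It was 0.93 cycles for rno-miR-351, larger than that of 10.5%, and −0.48 cycles for mmu-miR-503, which was thus earlier in V1 than in V3, larger than that of 4.51%. On card B the delay of mmu-miR-322 was 2.14 cycles, beside a median of 2.15 over 74 assays, and that of mmu-miR-322# was 0.72 cycles. The mean U6 Ct of card A differed less between these pools, at 17.82 (V1), 17.10 (V2) and 16.97 (V3).

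**Figure D3:**
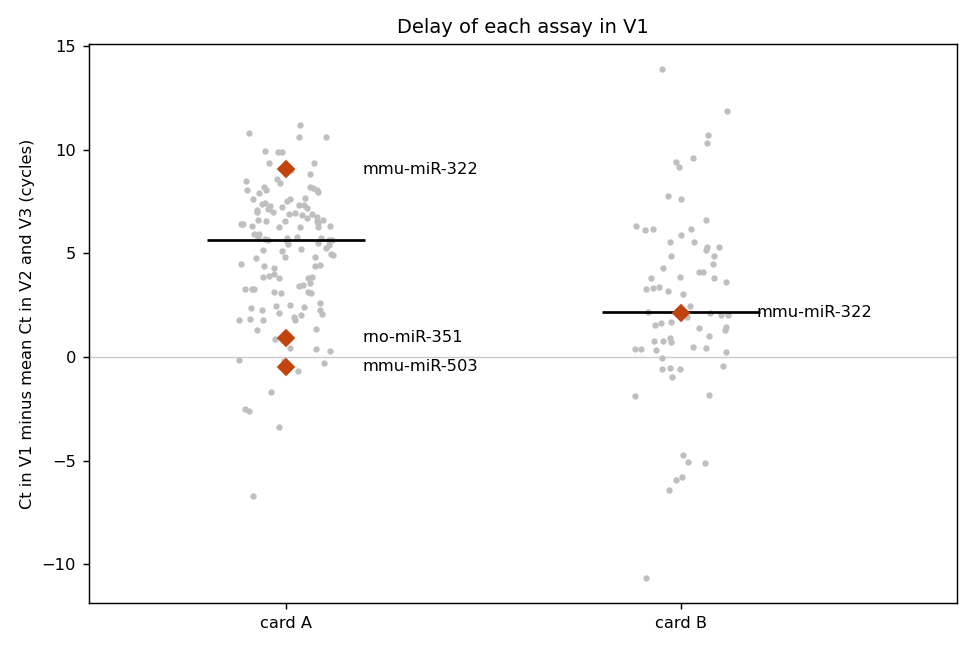
Ct in V1 minus the mean Ct of the determined wells in V2 and V3 (vertical axis, cycles) for each miRNA assay of card A and card B. Grey points are assays outside the cluster, orange diamonds the cluster assays, and black lines the card medians of 5.64 and 2.15 cycles. On card A, mmu-miR-322 lies above the median at 9.06 cycles and rno-miR-351 and mmu-miR-503 lie near 0.

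Between the fresh pools F2 and F3, the cluster was mostly higher in F3. The level was higher in F3 for 8 of the 9 members, with a median difference of 1.80 on the log2 scale and a range from −0.44 for mmu-miR-450a-5p to 4.24 for mmu-miR-322 on card B. Over all 370 miRNA assays determined in both pools, 74.3% were higher in F3, with a median of 0.69. The early embryo assays ran the other way, and all 8 that were determined in both pools were lower in F3, with a median of −1.89. All of these were assays of miR-290 to miR-295, with mmu-miR-292-3p counted on both cards, and none was of miR-302 or miR-367. The 5 muscle assays determined in both pools were higher in F3, with a median of 1.74, and of the 6 blood assays 3 were higher and 3 lower. The part of these marker differences in the levels of the cluster was not tested. Between the vitrified pools V2 and V3, only 4 members could be compared, and 2 of them were higher in V3, with a median of 0.18. Over all 342 assays determined in both, 28.9% were higher in V3, with a median of −0.43. The same 8 early embryo assays were all higher in V3, with a median of 2.18. Of the 5 muscle assays 1 was higher in V3, with a median of −0.79, and of the 6 blood assays 4 were higher and 2 lower. Each of these differences is between single pools and has no replicate.

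**Figure D4:**
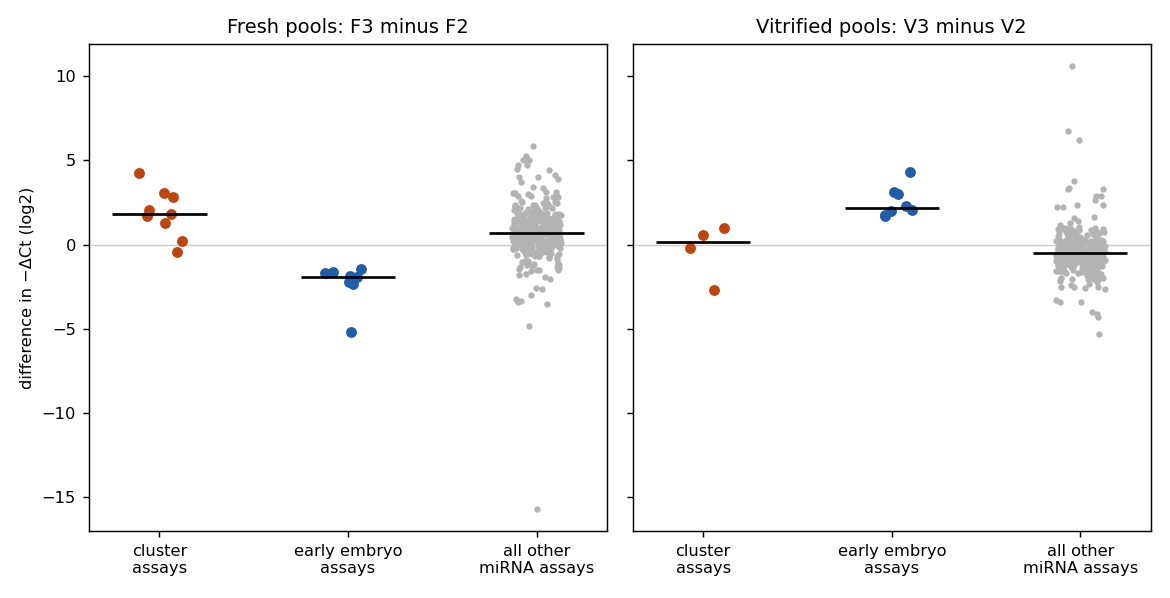
Difference in −ΔCt (vertical axis, log2) between the fresh pools F3 and F2 (left) and the vitrified pools V3 and V2 (right) for the cluster assays (orange), the early embryo assays (blue) and all other miRNA assays (grey), 1 point per assay, with medians as black lines. In the fresh pools the cluster has a median of 1.80 and the early embryo assays one of −1.89. In the vitrified pools the early embryo assays have a median of 2.18.

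MiRNAs encoded elsewhere but sharing the seed of miR-322 or miR-351 gave earlier Ct values than most of the cluster. For the seed of miR-322 these were mmu-miR-15a, mmu-miR-15b, mmu-miR-16, mmu-miR-195 and mmu-miR-497, of which mmu-miR-16 was the earliest, at 20.67 in V2, 20.85 in V3, 20.35 in F2 and 20.32 in F3, and at 24.34 in V1 and 26.14 in F1. None of the 5 had an adjusted or unadjusted p-value under 0.05 in the limma fit. The median log2 difference of these 5, vitrified minus fresh, was −1.81, with 3 lower and 2 higher, and 0.06 in the pools numbered 2 and 3. For the seed of miR-351, mmu-miR-125a-5p was at 25.93 in V2, 26.63 in V3, 24.94 in F2 and 24.92 in F3, and mmu-miR-125b-5p at 22.74, 22.89, 23.36 and 21.92 in the same pools. In these 4 pools mmu-miR-125a-5p was later in both vitrified than in both fresh pools, by a mean of 1.35 cycles, and mmu-miR-125b-5p overlapped. With V1 at 25.60 and F1 at 28.55 included, the groups overlapped for mmu-miR-125a-5p as well, and its log2 difference, vitrified minus fresh, was 0.50 (standard error 1.24), in the other direction. That of mmu-miR-125b-5p over all pools was 1.11 (standard error 3.05). Neither had an adjusted or unadjusted p-value under 0.05 in limma. Assays differ in how efficiently they amplify, so the order of Ct values between different assays is approximate.

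The profile most like that of mmu-miR-322 on card A over the 5 pools in which it was determined was that of mmu-miR-10b, with a root mean square difference of 0.42 between the centred levels, followed by mmu-miR-143 (0.47) and mmu-miR-26a (0.53). The median over the 194 assays compared was 1.84. For rno-miR-351, over its 5 pools, the nearest were mmu-miR-212 on card B (0.60), mmu-miR-136 on card A (0.66) and mmu-miR-146a (0.79), against a median of 1.86 over 194 assays. In V1 and V2 the level of mmu-miR-10b was −16.68 and −7.53, and that of mmu-miR-212 was −9.93 and −9.82. F1 was left out, as neither member had a Ct there. In that pool mmu-miR-212 was at −8.19, above its −8.93 in F2. The likeness uses the vitrified and fresh values by which rno-miR-351 was chosen. Nearness to other assays low in vitrified pools is thus partly built in, and nothing is read from it.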

How the data were processed

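Raw Ct values of 768 wells on 2 rodent TaqMan miRNA cards (A and B) were analysed in 3 vitrified and 3 fresh pools. According to the methods, the authors extracted RNA from each pool, used 30 ng of RNA from each pool for reverse transcription, added a pre-amplification step, ran 40 cycles of PCR and read Ct values with RQ Manager software, version not given in the sources used here. They deposited these Ct values without normalization. A second deposited table holds only fold changes calculated by the authors and was not used. Groups and pool numbers were taken from the sample labels. No 2 pools of a group shared an identical Ct.

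Undetermined wells and Ct values of 40 or more were left out, as the methods state, and ΔCt was calculated against the mean of the 4 U6 wells of the same card and pool. Assays with at least 2 determined wells per group were fitted with lmFit and eBayes in limma 3.58.1 (R 4.3.3), with Benjamini-Hochberg adjustment of the 2-sided p-values across 335 miRNA assays. The step was tested on simulated data with a smaller spread than that of many assays here. That run does not measure the power of the fit in these data. Differences between assays within a pool were compared by exact sign-flip permutation tests. Deviations from the group means correlated between pools of the same number at 0.80, 0.78 and 0.67 for numbers 1, 2 and 3. This was over 122 assays determined in all pools. The deviations within a group cancel out, so the correlations depend on each other. The late Ct values of V1 and F1 enter all 3. Between the other pools the shifts ran apart. Of the assays determined in both, 74.3% were higher in F3 than F2 and 28.9% in V3 than V2. The correlations therefore do not settle whether the numbers mark pairs. The numbers, taken from the labels, were treated as pairing the pools only in the alternative with a block. The number of pools limits the precision.

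The members, the marker and seed lists and the alternatives were chosen with earlier results of these data known. All 12 members, both opposite-arm wells and the 3 assays with the nearest profiles are named. Mature sequences and coordinates are those of RefSeq for GRCm38.p6. They were matched by miRNA name, and no sequence was printed for the rat-named assays. Python 3.11.15, pandas 2.3.3, numpy 2.4.6 and matplotlib 3.10.9 were used.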

Additional observations from a re-analysis of the deposited data

How the results depend on the processing

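In limma, 0 assays passed the adjusted threshold of 0.05 under each of the 16 alternatives, while 0 to 16 had an unadjusted p-value under 0.05, with 16 in the pools numbered 2 and 3. With the pool number as a block, 0 of 330 assays passed the adjusted and 4 the unadjusted threshold, and the median log2 difference of the 5 members that could be fitted was −0.49. The block changed no call. When single pools were left out, the median log2 difference of the members that could still be tested ranged from −2.88 to 1.66. Its positive values, 0.76 without F2 and 1.66 without F3, rest on mmu-miR-503 alone. Under the other alternatives it stayed below 0, between −1.79 without a reference and −0.07 with undetermined and later wells set to 35. The median over all tested assays was itself −0.57 with U6 and the other control wells determined in all pools as the reference. It was 0.12 with the mean of the miRNA assays determined in all pools and −0.35 without a reference. The difference between the mmu-miR-322 assays of cards A and B kept its direction under 6 alternatives, between 1.07 and 3.51, and that between the miR-351 assays under 5, between −1.95 and −1.19. The median log2 difference of the members had no value over the assays determined in all 6 pools, which hold no member. The alternatives for single assays were added after seeing the data. With undetermined wells set to 40, mmu-miR-322 on card A turned to 1.36. The difference lay between −1.62 and −0.35 for mmu-miR-542-5p and between −0.89 and −0.07 for mmu-miR-450B-3P. Undetermined wells, which were 36 of 72 in the cluster, limit all of these values.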

Other observations

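Other miRNAs of chromosome X were set beside the cluster. By name, 476 of the 635 assays without # were matched to mature mouse miRNAs of the RefSeq annotation of GRCm38.p6, and 77 outside the cluster matched chromosome X alone. Of these 77, 43 were undetermined in every pool, and 13 were determined in V1, 23 in V2, 30 in V3, 9 in F1, 29 in F2 and 26 in F3. In the limma comparison 20 of them could be tested, 7 with a lower and 13 with a higher mean in vitrified blastocysts, with a median log2 difference of 0.25. Over all 335 tested assays 51.9% had a lower mean in vitrified blastocysts. None of the 20 had an adjusted or unadjusted p-value under 0.05 in limma. In the pools numbered 2 and 3 the median was 0.11 over 19 assays. Between F2 and F3, 15 of 24 were higher in F3, with a median difference of 0.18 on the log2 scale. Over all 370 assays 74.3% were higher in F3, with a median of 0.69. Between V2 and V3, 4 of 21 were higher in V3, with a median of −0.68. Over all 342 assays 28.9% were higher in V3, with a median of −0.43.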
